A study of Arabidopsis thaliana with 6 samples.

Results

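The 200 most abundant genes of the sperm cell (SC) transcriptome of mature Arabidopsis pollen are described here. Every gene of the deposited table was ranked by the mean of its 3 SC values in TPM (a gene's share of the transcripts of a library, corrected for transcript length, on a scale where each library sums to 1000000), and the 200 highest of 27655 genes are the members. They were 2.69% of the 7445 genes that reached a mean of 1 TPM in SCs. SCs, and vegetative nuclei (VN) to set beside them, were sorted from mature pollen by fluorescence, with 3 Smart-seq2 RNA-seq libraries of each. SCs were sorted as cells and VN as nuclei, so cell type and the part of the cell that gave RNA cannot be told apart below. All plants were labelled wild type and carried the same pair of reporters, MGH3p::MGH3-GFP, which is made in SCs, and ACT11p::H2B-mRFP, which is made in the vegetative cell. They grew for 8 weeks in short days (8 h of light) before a shift to long days (16 h of light) for flowering. The first reporter carries MGH3 itself, so transcripts of the endogenous gene and of the transgene cannot be told apart in the MGH3 value. The study calls the libraries biological replicates, and the labels do not say whether those of a cell type came from separate plants, so every spread and p-value below measures the difference between these libraries only.

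A pollen grain of Arabidopsis holds a pair of SCs inside the cytoplasm of the much larger vegetative cell, which grows the pollen tube. One SC fuses with the egg cell and the other with the central cell. SC chromatin is condensed and carries its own histone variants, among them the histone H3 MGH3 (HTR10) and H2B.8. The R2R3 MYB transcription factor DUO1 switches on a large part of the male germline programme, including MGH3, the zinc finger genes DAZ1, DAZ2 and DAZ3, the F-box gene DAF1 and PCR11, and DAZ1 and DAZ2 are needed for the division that gives rise to the SCs. GEX2, HAP2 (GCS1), DMP8 and DMP9 encode membrane proteins that act when the gametes meet and fuse.

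The SC libraries carried the germline markers at high level. MGH3 stood at rank 21 with 6050, 4735 and 4500.0 TPM in the 3 SC libraries, against 61.3, 45.9 and 158.7 TPM in VN. GEX1, a nuclear membrane protein of gametes, stood at rank 40 with 2324, 2861 and 2614 TPM in SCs, against 41.2, 82.8 and 117.2 TPM in VN. For both genes every SC library lay above every VN library. DUO1 itself was far lower, at rank 698 with 122.8, 108.2 and 102.9 TPM in SCs and at most 4.32 TPM in VN, and HAP2 was at rank 780 with 108.6, 96.8 and 91.3 TPM in SCs and at most 6.77 TPM in VN. Of 12 further sperm genes, 5 were members (DAF1, PCR11, DAZ3, DMP9 and H2B.8) and all 12 were above 1 TPM. The regulators DAZ1 and DAZ2 ranked 665 and 688, while their relative DAZ3 ranked 14.

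Genes of other cell types were present at unequal levels. The 19 vegetative cell markers summed to 1349, 1195 and 1458 TPM in the SC libraries, against 34456, 35389 and 39428 TPM in VN, so that the sum in SCs was 3.70%, 3.28% and 4.002% of the mean sum in VN. One of them, the arabinogalactan protein gene AGP11, was a member at rank 159, 17 of the 19 were above 1 TPM in SCs, and MYB120 was listed at 0 in all 3 SC libraries. The 7 tapetum markers summed to at most 0.632 TPM in any SC library and to between 1.62 and 21.2 TPM in VN, with DYT1, MS1, AMS and LAP5 listed at 0 in all 3 SC libraries. Of the 6 green tissue genes only RBCS3B, a small subunit of Rubisco, was above 1 TPM in SCs (rank 202), and RBCS1A, LHCB1.1, LHCB1.3, RCA and PSBO1 did not exceed 0.533 TPM in an SC library, with LHCB1.1, LHCB1.3 and RCA listed at 0 in all 3, so that the list summed to between 339.9 and 514.8 TPM in SCs and between 3.08 and 8.49 TPM in VN. Genes of the plastid and mitochondrial genomes (210 in the table) held at most 0.0101% of the TPM of a library, and none was a member. The number of genes above 0 TPM was 13735, 15112 and 12418 in SCs and 15289, 10202 and 13649 in VN. TPM keeps no read numbers, so the depth of a library is unknown and no counting error can be given.

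The 200 members held 77.7%, 79.5% and 80.1% of all TPM in the SC libraries (79.1% ± 1.24, SD, n = 3), and the same genes held 17.6%, 18.1% and 21.0% in VN (18.9% ± 1.83, n = 3). Within the members the share was concentrated at the top. Rank 1 alone held 13.96% of SC TPM on average, ranks 2 to 15 held 40.9%, ranks 16 to 50 held 13.004%, ranks 51 to 100 held 5.62% and the last 100 ranks held 5.61%. Mean TPM dropped by 2.19 times from rank 3 to rank 4 and by 2.003 times from rank 15 to rank 16, and those were the widest steps between neighbours in the list. The same 15 genes were the 15 highest of every SC library.

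To compare the evenness of the transcriptomes, each library was ranked on its own. The 200 highest genes of a library then held 77.8%, 79.5% and 80.2% of its TPM in SCs and 58.5%, 60.9% and 63.7% in VN, a difference of 18.1 percentage points (exact permutation test over libraries, two-sided, p = 0.1, which is the smallest p that 3 against 3 libraries allow). In SCs 14, 12 and 11 genes sufficed for 50% of TPM, against 127, 111 and 90 genes in VN. The libraries of the cell types did not overlap in either measure. With the 10 highest genes of each library taken out and the rest rescaled, the next 200 genes held 61.5% ± 0.328 in SCs and 55.9% ± 2.37 in VN (n = 3 each), a gap of 5.67 points, again without overlap. Per the study's methods, the same number of SCs or nuclei was sorted for every library. TPM are shares, so more RNA of these genes and less of all other RNA per cell cannot be told apart, and neither can the amount of RNA per cell and the number of cells that gave it to a library.

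**Figure D1:**
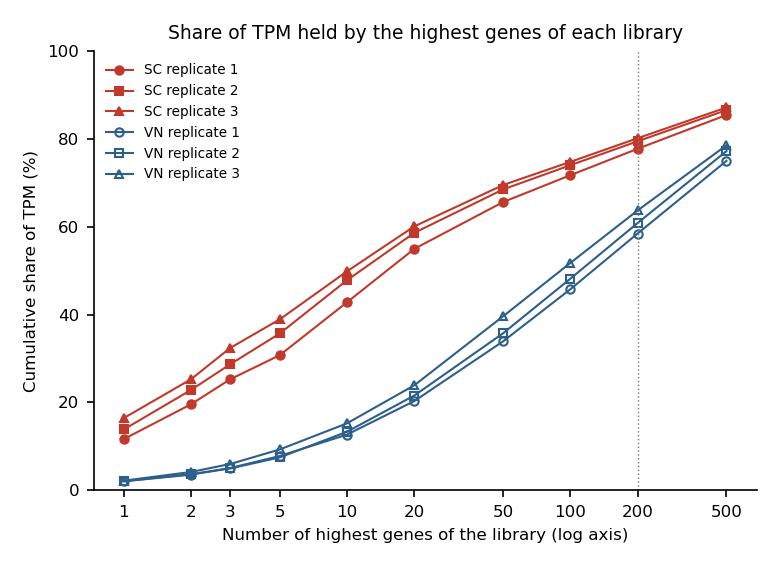
Cumulative share of TPM (%, y axis) held by the highest genes of each library, ranked within that library, against the number of genes (x axis, log scale). Filled red symbols are the 3 SC libraries and open blue symbols the 3 VN libraries, and the dotted line marks 200 genes, where SC libraries lay between 77.8% and 80.2% and VN libraries between 58.5% and 63.7%.

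At rank 1 stood AT3G62230 (DAF1, DUO1-activated F-box), a single-exon gene that encodes an F-box protein. F-box proteins choose the substrates of SCF ubiquitin ligases. It had 116379, 138306 and 164209 TPM in the SC libraries and 1852, 3174 and 3225 TPM in VN. It was the highest gene of all 3 SC libraries and varied among them by a coefficient of variation (CV) of 17.1%. It lies at chr3:23031531-23033146 on the plus strand (TAIR10 coordinates). The related genes of its family were almost silent, with 0.167 TPM in SCs for the highest of 4 paralogues, AT5G54820.

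Ranks 2, 3 and 4 were taken by genes described only as hypothetical proteins. AT1G34095 (chr1:12411670-12412514, minus strand, 4 exons, 203 residues) had 79394, 90011 and 88586 TPM in SCs, against 1054, 1266 and 2031 TPM in VN. AT4G11543 (chr4:6993372-6994201, minus strand, 1 exon, 55 residues) had 57046, 58799 and 71361 TPM in SCs and 769.2, 1047 and 1219 TPM in VN. AT2G45403 (chr2:18709301-18710153, plus strand, 3 exons, 154 residues) had 25919, 25636 and 33844.5 TPM in SCs and 282.5, 566.8 and 451.4 TPM in VN. AT1G34095 varied least among the SC libraries (CV 6.70%), and both others were highest in SC replicate 3. These 3 genes held 16.2%, 17.4% and 19.4% of SC TPM in the 3 libraries, against 0.211%, 0.288% and 0.370% in VN.

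None of the 3 has a paralogue at the protein level, but their starts share a sequence. Windows from 250 bases before to 50 bases after the annotated start were read from the TAIR10.1 genome and aligned with each other. The window of AT1G34095 matched that of AT2G45403 over 253 aligned positions with 89.3% identity and that of AT4G11543 over 151 positions with 90.1% identity, and AT4G11543 matched AT2G45403 over 152 positions with 92.8% identity. The windows are shown because the 3 genes hold more SC TPM together than rank 1, and capitals mark the stretch aligned to another of the 3.
AT1G34095, chr1:12412465-12412764, minus strand: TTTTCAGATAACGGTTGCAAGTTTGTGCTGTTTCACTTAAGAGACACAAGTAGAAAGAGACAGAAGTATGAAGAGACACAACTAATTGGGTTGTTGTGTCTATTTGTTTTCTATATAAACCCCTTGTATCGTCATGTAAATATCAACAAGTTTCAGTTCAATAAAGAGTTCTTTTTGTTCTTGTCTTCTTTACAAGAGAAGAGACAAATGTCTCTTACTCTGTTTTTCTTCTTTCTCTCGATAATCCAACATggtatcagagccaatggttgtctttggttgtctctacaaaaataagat
AT4G11543, chr4:6994152-6994451, minus strand: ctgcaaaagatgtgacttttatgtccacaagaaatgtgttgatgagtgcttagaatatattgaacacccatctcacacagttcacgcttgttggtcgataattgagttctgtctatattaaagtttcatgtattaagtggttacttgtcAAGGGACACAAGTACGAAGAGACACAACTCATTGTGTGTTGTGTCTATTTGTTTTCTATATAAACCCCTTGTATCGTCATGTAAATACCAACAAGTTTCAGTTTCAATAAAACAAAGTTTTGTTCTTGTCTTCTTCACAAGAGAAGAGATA
AT2G45403, chr2:18709051-18709350, plus strand: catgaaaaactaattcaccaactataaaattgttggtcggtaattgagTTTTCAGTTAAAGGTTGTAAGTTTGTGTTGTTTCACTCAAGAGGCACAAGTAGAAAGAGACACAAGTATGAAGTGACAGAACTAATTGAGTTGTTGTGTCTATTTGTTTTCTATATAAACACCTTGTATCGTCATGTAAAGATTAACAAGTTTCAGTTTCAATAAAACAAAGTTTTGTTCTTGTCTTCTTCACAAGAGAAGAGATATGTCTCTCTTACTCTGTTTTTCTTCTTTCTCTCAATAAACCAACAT
The annotated starts do not sit at the same base of the shared stretch. Within the windows it runs from base -250 to 2 in AT1G34095, from -101 to 50 in AT4G11543 and from -202 to 50 in AT2G45403, counted from the first annotated base as 1. Window edges set several of these limits. Matches in the genome run on to chr1:12412783, chr4:6994058 and chr2:18709398 at these genes. So the shared sequence reaches into the annotated AT4G11543 and AT2G45403, further than the capitals mark, and reads may have been split between copies there.

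Searched against the genome, the 3 windows matched 34 loci on 5 chromosomes, between 49 and 394 bases long. A gene of the table started within 300 bases of 10 of these loci on the same strand, and 5 of those genes reached a mean of 1 TPM in SCs. They were the 3 members, AT1G47495 (rank 870) and AT4G11540 (rank 2755). AT1G47495 had 90.7, 93.2 and 70.0 TPM in SCs, against 1.04, 1.99 and 0.322 TPM in VN. AT4G11540 had 8.06, 19.7 and 16.4 TPM in SCs and at most 0.0610 TPM in VN. In all 5 genes every SC library lay above every VN library, a direction that keeping genes by their SC level favours. How often this held over all genes at that level was not counted, so nothing is drawn from it. At AT2G45403 and at AT4G11543 a further copy lies downstream in the same direction, with starts 1734 and 1586 bases apart. The copy downstream of AT2G45403, at chr2:18710785-18711053, overlaps AT2G45405 (rank 7). Downstream of AT1G34095, also on its strand, 3 shorter matches of 128, 160 and 128 bases lie at chr1:12411463-12411590, chr1:12409988-12410147 and chr1:12406583-12406710. Directly repeated ends are known from LTR retrotransposons. The 12 letters TGGTATCAGAGC, the primer binding site that many Ty1/copia elements of plants carry behind the left repeat, begin at base 2 of AT1G34095. The stretch in capitals also ends at base 2, but only because the window of AT2G45403 ends at its base 50. The 12 letters were found in the windows of 6 of 27444 genes (0.0219%, gene strand), of which AT1G34095 was the only member and the others were listed at 0 TPM in SCs. The windows of AT2G45403 and AT4G11543 end at the first base of the matching place or before it. The search could therefore not find the letters in these 2 genes. A match is a description of letters and does not show what drives these genes.

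The neighbours of these genes were members too. AT2G45405 (rank 7, 66 residues) begins 190 bases behind AT2G45403 on the same strand, with 24466, 36651 and 17433 TPM in SCs, against 606.5, 452.4 and 548.7 TPM in VN. It had a CV of 37.1%, and its order among the libraries differed from that of AT2G45403, which was highest in replicate 3 where AT2G45405 was lowest. AT4G11547 (rank 23), a cysteine and histidine rich C1 domain gene of 78 residues, overlaps AT4G11543 by 157 bases on the same strand, so reads in the overlap could be given to either. It had 5430, 4614 and 4911 TPM in SCs and 63.6, 52.1 and 72.4 TPM in VN. The 5 genes of these 3 loci held 20.8% of SC TPM and 0.349% of VN TPM on average.

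The remaining genes of the first 15 had mean SC levels between 14392 and 27887 TPM. AT4G21895 (rank 5), described as a DNA binding protein, had 28992, 33428 and 21240 TPM in SCs and 375.4, 431.3 and 658.0 TPM in VN. CYCD7;1 (rank 6), a D-type cyclin that partners cyclin-dependent kinases at the entry into S phase, had 23863, 27051 and 31333 TPM in SCs and 371.5, 555.1 and 853.0 TPM in VN. AT1G75870 (rank 8, hypothetical protein) was the steadiest of the 15, with 25933, 26030.1 and 24544 TPM in SCs (CV 3.26%) and 311.0, 474.7 and 551.9 TPM in VN. Ranks 10 to 12 were a gene described as Sin3-like (AT5G15030), the cysteine-rich membrane protein gene PCR11 and a transmembrane protein gene of 59 residues (AT4G14315). AT4G14315 was the least steady of the 15, at 22989, 18376 and 10149 TPM in SCs (CV 37.9%). TIP5;1 (rank 13) encodes an aquaporin of the tonoplast type and had 17239, 13960 and 18188 TPM. DAZ3 (AT4G35700, rank 14) had 17002, 14600.1 and 17717 TPM, and the F-box gene AT1G80470 (rank 15) had 13772.5, 13439 and 15963.5 TPM. In VN the means of ranks 1 to 17 were between 1.09% and 2.43% of the SC means, a narrow band over genes of unrelated function.

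**Figure D2:**
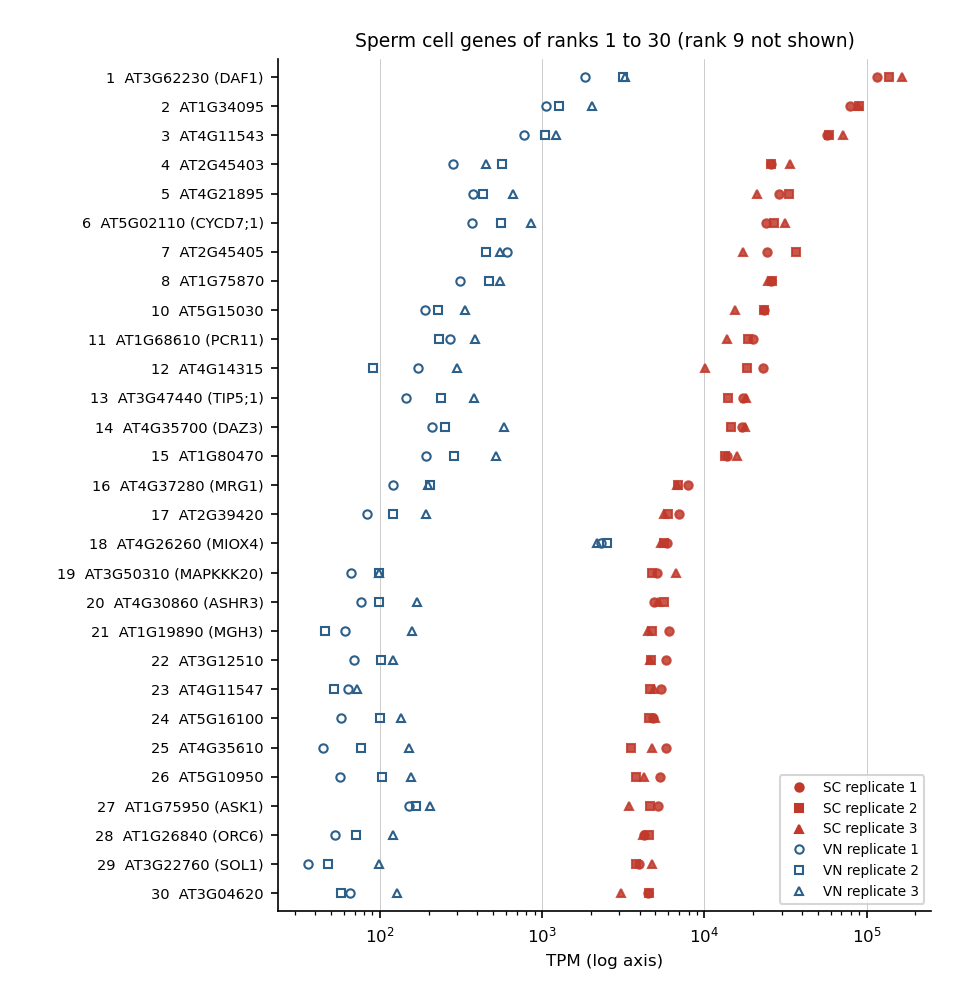
TPM (x axis, log scale) of the members of ranks 1 to 30 in each library, from rank 1 at the top, with rank 9 left out. Filled red symbols are SC replicates 1 to 3 and open blue symbols VN replicates 1 to 3. MIOX4 at rank 18, with 2197 to 2509 TPM in VN, lies apart from the other genes shown, whose VN values run in parallel to the SC values.

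DUO1 binds MYB sites of the kind AACCGT or AACCGC. These letters were sought in the start windows of all genes on both strands, and either was found in 27.5% of the members' windows, in 32.0% of those of ranks 1 to 50, in 15.9% of those of the other 7236 genes at 1 TPM or more in SCs with a window, in 12.5% of those of the 200 highest VN genes and in 12.4% of all 27444 windows. The letters TATAAA on the gene strand were found in 46.0% of the members' windows and in 37.2% of all windows. The window of DAF1 holds AACCGC at base -74 on the gene strand and at base -91 on the other strand. That of the marker MGH3 holds AACCGT at -81, AACCGC at -58 and, on the other strand, AACCGT at 36. That of DAZ3 holds AACCGC at -56. They are shown as the windows of the highest gene and of 2 known DUO1 targets, with those letters, read on either strand, in capitals.
DAF1, chr3:23031281-23031580, plus strand: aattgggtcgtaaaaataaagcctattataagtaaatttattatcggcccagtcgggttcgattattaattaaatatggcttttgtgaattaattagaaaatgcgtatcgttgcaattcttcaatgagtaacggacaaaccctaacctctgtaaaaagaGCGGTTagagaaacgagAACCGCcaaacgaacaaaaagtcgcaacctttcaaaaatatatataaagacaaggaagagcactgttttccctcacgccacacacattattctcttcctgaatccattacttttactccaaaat
MGH3, chr1:6904713-6905012, plus strand: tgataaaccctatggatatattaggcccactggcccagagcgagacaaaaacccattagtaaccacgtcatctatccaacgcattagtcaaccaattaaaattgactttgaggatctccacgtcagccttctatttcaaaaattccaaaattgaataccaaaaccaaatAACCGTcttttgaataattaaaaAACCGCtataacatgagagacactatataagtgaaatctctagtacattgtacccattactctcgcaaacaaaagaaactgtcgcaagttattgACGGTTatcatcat
DAZ3, chr4:16923069-16923368, plus strand: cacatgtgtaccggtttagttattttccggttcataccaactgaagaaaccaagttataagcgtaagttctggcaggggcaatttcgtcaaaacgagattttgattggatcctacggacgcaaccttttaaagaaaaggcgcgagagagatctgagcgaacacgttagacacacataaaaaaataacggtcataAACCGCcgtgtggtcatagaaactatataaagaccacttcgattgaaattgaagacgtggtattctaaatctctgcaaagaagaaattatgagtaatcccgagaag
Among ranks 2 to 13 the letters were found in the windows of AT1G34095, AT4G21895, AT1G75870 and TIP5;1, and not in that of PCR11. Finding none says only that these letters are not in this window.

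The members were sorted by hand into 12 groups by the role their descriptions give, after their values had been seen, so the groups describe the list and were not tested. Genes with no described function (hypothetical proteins, transmembrane proteins without a family, domains of unknown function) were 32 of 200 and held the largest share, 27.8% ± 0.959 of SC TPM (SD, n = 3) and 2.17% ± 0.136 of VN TPM. They included 5 of the 8 highest members. Most of the share came from few genes, with 20.3% of SC TPM in ranks 2, 3, 4 and 7, 2.55% in rank 8 and 1.72% in rank 12. The products of the 32 genes were short, with a median of 160.5 residues, and 9 were under 100 residues. AT5G06280 (rank 96, hypothetical protein) was among the 5 steadiest members, with 853.4, 857.4 and 833.9 TPM in SCs (CV 1.48%) and 11.4, 9.56 and 9.23 TPM in VN. The transmembrane protein gene AT5G23160 (rank 48) had 1965, 1985 and 2174 TPM in SCs and 22.3, 16.6 and 79.7 TPM in VN. AT1G31990 (rank 31), described in the same way, had 4068, 4103 and 3636 TPM in SCs, against 47.4, 71.5 and 117.8 TPM in VN.

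**Figure D3:**
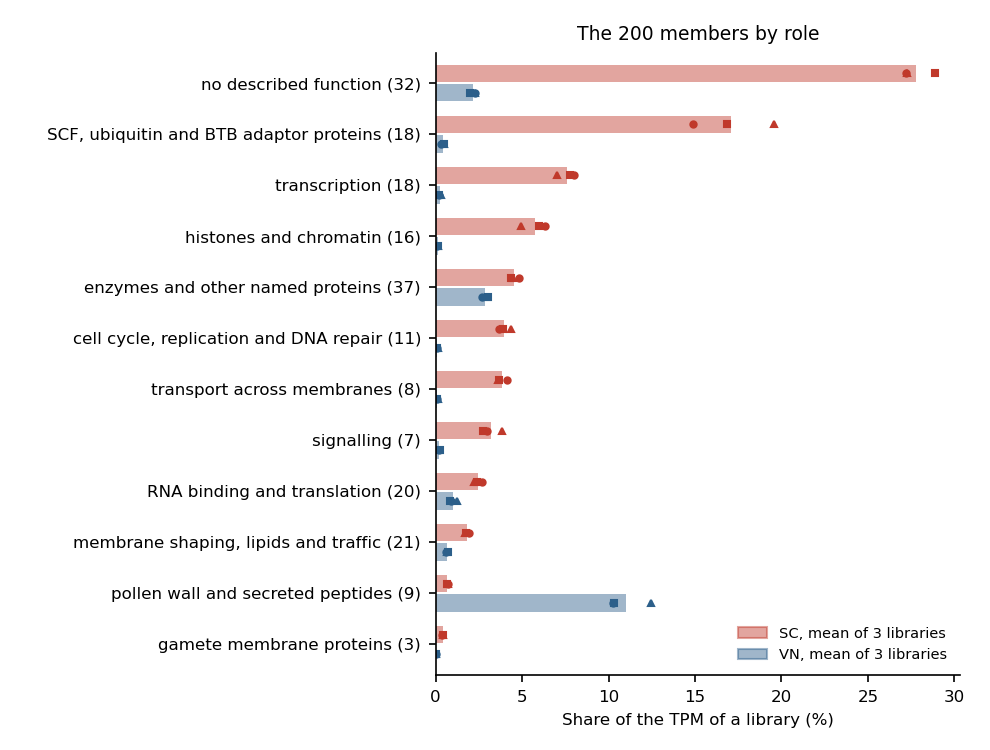
Share of the TPM of a library (%, x axis, from 0) held by the members of each role group, with the number of members in brackets. Bars are means of 3 libraries (SCs red, above, and VN blue, below) and symbols are single libraries (circles, squares and triangles for replicates 1, 2 and 3). Genes with no described function and the ubiquitin group held the largest shares in SCs, at 27.8% and 17.1%. The group of pollen wall proteins and secreted peptides was the only one with a larger share in VN (0.682% in SCs and 11.01% in VN).

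The 18 members of ubiquitin ligases and their adaptors held 17.1% ± 2.36 of SC TPM and 0.445% ± 0.0969 of VN TPM, and 3.14% of SC TPM without DAF1. F-box genes accounted for most of it, since the 4 members described as F-box held 15.8% ± 2.50 of SC TPM. AT1G60410 (rank 36), related to AT1G80470 with 50.8% identity, was nearly level across the SC libraries at 3210, 3161 and 3069 TPM (VN 43.3, 27.7 and 96.1 TPM). ASK1 (rank 27), the SKP1 subunit that joins F-box proteins to cullin, had 5154, 4617 and 3460 TPM in SCs, against 152.1, 166.4 and 203.1 TPM in VN. Another SKP1 gene, ASK18 (rank 141), had 715.9, 648.5 and 395.9 TPM in SCs, and both SKP1 genes were lowest in SC replicate 3. The E2 enzymes UBC20 (rank 79) and UBC19 (rank 200), which share 90.1% identity and act with the anaphase-promoting complex, and the MATH-BTB proteins BPM2 (rank 68) and BPM3 (rank 174), which are adaptors of cullin 3 ligases, stood further down. The polyubiquitin gene UBQ14 (rank 114) was close in both cell types, at 738.2, 690.6 and 630.5 TPM in SCs and 652.7, 642.0 and 476.0 TPM in VN.

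Regulators of transcription were 18 members with 7.61% ± 0.509 of SC TPM and 0.228% ± 0.0531 of VN TPM. C2H2 zinc finger genes DAZ3 and AT4G35610 (rank 25), which share up to 43.0% identity, held 2.11% ± 0.260 of SC TPM together. AT4G35610 had 5830, 3556 and 4744 TPM in SCs and 44.7, 76.2 and 150.4 TPM in VN. Other members of this group were a MADS-box gene (AT3G12510, rank 22), an RWP-RK gene (AT5G16100, rank 24, CV 4.23%), SOL1 (rank 29), a tesmin-like CXC domain gene, and AT1G60240 (rank 33), described as a NAC domain gene. EIN3 (rank 32) and its relative EIL1 (rank 171), the transcription factors at the end of ethylene signalling, were both members. EIN3 had 3725, 3358 and 4256 TPM in SCs and 44.03, 63.6 and 113.9 TPM in VN, and EIL1 had 595.1, 463.9 and 382.6 TPM in SCs and 9.13, 8.45 and 12.1 TPM in VN. Within SC libraries they did not run in parallel, since EIN3 was highest and EIL1 lowest in replicate 3.

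Histones and chromatin proteins were 16 members with 5.74% ± 0.732 of SC TPM and 0.121% ± 0.0396 of VN TPM. The 3 genes described as Sin3-like or as holding a paired amphipathic helix, the fold by which Sin3 corepressors bind transcription factors, lie next to each other on chromosome 5. AT5G15030 (rank 10) had 23323, 23466 and 15371 TPM in SCs, AT5G15025 (rank 38) had 3121, 3255 and 2154 TPM and AT5G15040 (rank 54) had 1909, 1582 and 1109 TPM. All 3 were lowest in SC replicate 3, their proteins are 139, 122 and 87 residues long with 40.0% to 54.7% identity, and together they held 2.51% ± 0.560 of SC TPM and 0.0326% ± 0.0110 of VN TPM. MRG1 (rank 16), a reader of methylated lysine 36 of histone H3, had 7889, 6900.2 and 6770.4 TPM in SCs, against 121.3, 202.9 and 199.5 TPM in VN. ASHR3 (rank 20), a SET domain methyltransferase, had 4928, 5653 and 5182 TPM in SCs and 76.8, 99.4 and 168.8 TPM in VN. Among core histones only MGH3, AT2G37470 (described as histone superfamily, 138 residues, at rank 35, with 3722, 3554 and 2624 TPM in SCs) and H2B.8 (rank 199, with 456.7, 417.6 and 363.2 TPM in SCs) were members. AT5G10950 (rank 26), a Tudor domain gene, had 5306, 3807 and 4225 TPM in SCs and 56.6, 102.6 and 156.2 TPM in VN. Remodelling factors CHR17 (rank 58) and ATRX and the HMG box genes HMGB9 (rank 67) and HMGB15 (rank 128) completed the larger part of the group.

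Genes of the cell cycle, replication and DNA repair were 11 members with 3.96% ± 0.357 of SC TPM and 0.0878% ± 0.0325 of VN TPM, most of it from CYCD7;1. ORC6 (rank 28), a subunit of the origin recognition complex that marks replication origins, had 4270.3, 4589 and 4216 TPM in SCs and 52.9, 70.9 and 121.4 TPM in VN. TSO2 (rank 46), a subunit of ribonucleotide reductase that makes deoxynucleotides, had 2289, 2024 and 2396 TPM in SCs and 24.3, 11.8 and 55.2 TPM in VN. CKS2 (rank 51), CYCB1;2 (rank 108), a mitotic cyclin, the licensing factor CDT1 (rank 180) and the DNA repair gene RAD4 (rank 178, with 469.7, 440.6 and 473.2 TPM in SCs and 9.75, 24.2 and 20.98 TPM in VN) were members as well. Photolyase PHR1 (rank 147), which reverses ultraviolet damage, was among the 5 steadiest members at 553.0, 553.4 and 569.3 TPM in SCs (CV 1.67%), against 35.8, 39.7 and 36.0 TPM in VN.

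RNA binding and translation gave 20 members with 2.43% ± 0.220 of SC TPM and 0.986% ± 0.210 of VN TPM. Poly(A)-binding proteins, which coat the tail of messenger RNA, were 4 of them. PAB5 (rank 43) had 2549, 1871 and 2475 TPM in SCs, PAB6 (rank 74) had 1223, 1074 and 1043 TPM, PAB7 (rank 92) had 1032, 876.1 and 799.3 TPM and PAB2 (rank 95) had 886.9, 878.6 and 783.4 TPM, and in VN none of the 4 exceeded 105.7 TPM. LARP6A (rank 34), a La-related RNA-binding protein, had 3640, 3441 and 3344 TPM in SCs and 177.9, 197.2 and 289.1 TPM in VN. The Alba domain gene AT3G04620 (rank 30), the highest of this group, had 4473, 4571 and 3062 TPM in SCs and 65.3, 58.0 and 127.8 TPM in VN. The initiation factor gene AT3G55620 (rank 153) had 586.2, 508.5 and 485.2 TPM in SCs and 88.5, 70.5 and 73.2 TPM in VN. Of the ribosomal protein genes at 1 TPM or more in SCs, 3 of 148 (2.03%) were members, RPL30B (rank 71), AT1G07210 (rank 93) and RPL37B (rank 121), against 2.69% of all genes at that level. RPL30B had 1629, 1152 and 715.9 TPM in SCs, a CV of 39.2%, and its 94.6% identical relative AT1G36240 was listed at 0 in SCs.

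Transport proteins (8 members) held 3.82% ± 0.292 of SC TPM, nearly all of it from PCR11 and TIP5;1, which had 19831, 18569.7 and 13747 TPM and 17239, 13960 and 18188 TPM in SCs. PCR11 had 11 paralogues and TIP5;1 had 25, and none of these reached a mean of 1 TPM in SCs. The vacuolar ATPase subunits DET3 (rank 57) and AVA-2PE (rank 129) belonged here too, as did the adenine nucleotide carrier ADNT1 (rank 88), which was steady at 990.3, 944.7 and 952.2 TPM in SCs (CV 2.54%), against 17.3, 19.8 and 31.8 TPM in VN. Signalling genes (7 members) held 3.20% ± 0.567, of which MAPKKK20 (rank 19) gave 5124, 4729 and 6731 TPM in SCs. MAPKKK19 (rank 152), 75.5% identical to MAPKKK20, was level at 511.9, 544.5 and 552.6 TPM in SCs and among the 5 members of lowest VN mean, with 2.52, 3.12 and 8.97 TPM. Gamete membrane proteins were 3 members, GEX1, DMP9 (rank 80, with 1133, 1053 and 957.2 TPM in SCs and 14.4, 5.11 and 53.8 TPM in VN) and GEX3 (rank 176), with 0.412% ± 0.0240 of SC TPM.

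Membrane shaping, lipid and traffic genes were 21 members, none above rank 53, with 1.81% ± 0.125 of SC TPM and 0.656% ± 0.0483 of VN TPM. They included the glycolipid transfer gene ACD11 (rank 53) and its relative AT4G39670 (rank 55), the reticulons RTNLB22, RTNLB5 and RTNLB3, which curve the endoplasmic reticulum, and the HVA22 genes HVA22J and HVA22G. PEX19-1 (rank 107), a peroxisome import factor, AT3G22290 (rank 94), described as a vesicle transporter of the endoplasmic reticulum, and PRA1.E (rank 146) had VN means of 2.24%, 20.8% and 15.4% of their SC means. RABG3E (rank 104), a RAB7-type GTPase of the vacuolar route, had 772.5, 790.9 and 754.1 TPM in SCs, against 9.47, 12.4 and 9.93 TPM in VN. It held 33.8% of the SC TPM of its family, which has 61 further GTPase genes, and 0.384% of the VN TPM of that family. ORP3A (rank 120), an oxysterol-binding protein, stood next to the steadiest member in CV, at 663.6, 663.6 and 648.3 TPM in SCs (CV 1.35%). The largest group by number, 37 enzymes and other named proteins, held 4.56% ± 0.2496 of SC TPM and 2.88% ± 0.193 of VN TPM, led by the hydrolase AT2G39420 (rank 17) and MIOX4 (rank 18). The WD40 repeat gene AT1G64610 (rank 44) was among the 5 steadiest members, with 2208, 2251 and 2299.96 TPM in SCs (CV 2.03%) and 34.4, 46.3 and 67.96 TPM in VN. The oxygenase gene AT1G48740 (rank 47) had 2192, 2197 and 2309 TPM in SCs and 39.6, 55.5 and 107.5 TPM in VN, and the oxidoreductase gene CEQORH (AT4G13010, rank 164) had 466.3, 428.4 and 596.4 TPM in SCs and 71.02, 56.4 and 76.1 TPM in VN. MIOX4, which oxidises myo-inositol towards cell wall precursors, was high in both cell types, at 5868, 5681 and 5395 TPM in SCs and 2321, 2509 and 2197 TPM in VN.

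The group of pollen wall proteins and secreted peptides, with 9 members, was lower in share in SCs than in VN. It held 0.708%, 0.649% and 0.689% of SC TPM and 10.2%, 10.3% and 12.4% of VN TPM. AGP40 (rank 60), an arabinogalactan protein, had 1609, 1456 and 922.8 TPM in SCs, against 20242, 15885 and 18238 TPM in VN. RALFL8 (rank 75) and RALFL9 (rank 83), small secreted peptides of the RALF family with 86.3% identity, had 1075, 1150 and 1036 TPM and 1001, 1112 and 912.9 TPM in SCs, and 15063, 12740 and 21682 TPM and 15200, 12465 and 19812 TPM in VN. Only the COBRA-like gene COBL8 (rank 161) ran the other way, with 519.8, 408.1 and 590.4 TPM in SCs and 4.13, 15.1 and 6.51 TPM in VN.

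Levels in VN were set beside the members with limma on log2(TPM + 1) over all 10955 genes at 1 TPM or more in at least 2 libraries, where a gene counted as called if its adjusted p was below 0.01 and its levels differed by more than 1 on the log2 scale. The ranking used the SC values of this contrast, so the counts describe the members and show nothing beyond that choice. Of the 200 members, 175 were called higher in SCs, while 29.2% of all genes tested were called in that direction. Another 14 were called higher in VN, against 35.6% of all genes tested, and 11 were not called. Over all genes the balance of calls turned with the scaling, from 3204 higher in SCs and 3901 higher in VN to 3894 and 3345 with median centring and to 3774 and 3577 with quantile normalization. The median log2 difference, SC minus VN, was 5.18 over the members and -0.55 over all genes tested. All members of ranks 1 to 50 were called higher in SCs, and all 14 of the other direction lay between ranks 60 and 198. By role, all 16 histone and chromatin members, all 11 of the cell cycle, all 8 transport proteins and all 3 gamete membrane proteins were called higher in SCs. Of the 9 pollen wall proteins and secreted peptides, 8 were called higher in VN.

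**Figure D4:**
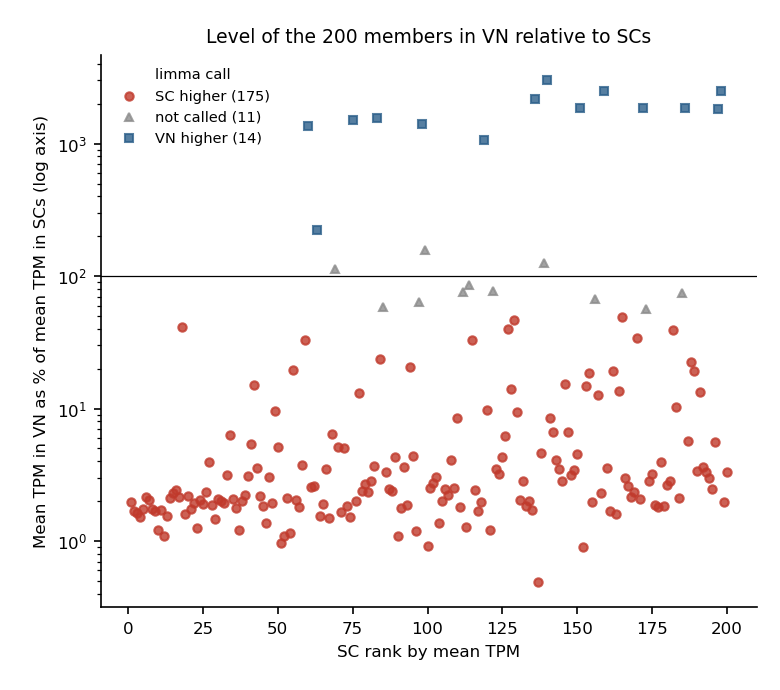
Mean TPM in VN as a percentage of mean TPM in SCs (y axis, log scale) for each member against its SC rank (x axis). Red circles were called higher in SCs (175), blue squares higher in VN (14) and grey triangles were not called (11), and the line marks equal levels. The first 17 ranks lie between 1.09% and 2.43%, rank 18 (MIOX4) lies at 41.5%, and 13 of the 14 squares lie above 1000%.

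The 14 members higher in VN, named here after their values were seen, were AGP40, AGP11, RALFL8, RALFL9, AT5G45880 (an Ole e 1 type pollen protein), SKS13, AT2G47050 (a pectin methylesterase inhibitor), BCP1, HVA22J, the peroxiredoxin TPX2, AT1G78460, AT2G41905, AT3G49540 and AT3G01230. Their SC means were between 3.32% (SKS13) and 44.6% (HVA22J) of their VN means, with a median of 5.47%. The 200 highest VN genes as a whole had a median of 2.96%, and the 19 vegetative markers summed to 3.28% to 4.002%. All 14 were among the 200 highest VN genes, and they held 1.04%, 0.999% and 1.03% of SC TPM against 15.2%, 15.2% and 17.8% of VN TPM. The part that RNA of the vegetative cell has in their SC values was not tested. TPX2 (rank 136) had 595.7, 585.7 and 631.5 TPM in SCs and 12454, 13100 and 13726 TPM in VN, and its relative AT1G60740 is 98.8% identical, so that reads may have been split between them.

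No member was listed at 0 in all VN libraries or under 1 TPM there on average, and 14 were under 10 TPM. The lowest was AT3G48660 (rank 137, a transmembrane protein gene of 89 residues) with 868.8, 683.8 and 255.3 TPM in SCs, against 5.06, 0 and 3.7997 TPM in VN. In VN, 135 of the 200 were below 5% of their SC mean. Above 10% lay 2 of the 50 members of ranks 1 to 50 and 47 of the 150 of ranks 51 to 200. Whether the low VN levels are transcripts of the vegetative nucleus or RNA of SCs was not tested.

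Most members were among the highest genes of each SC library, which ranking by the mean of the same libraries favours. Of the 200 members, 190 were among the 200 highest genes of SC replicate 1, 190 among those of replicate 3 and all but 4 among those of replicate 2, 178 were so in all 3, and 221 genes were so in at least 1. The CV over the 3 libraries had a median of 11.5% (quartiles 6.79% and 18.7%), and it was under 20% for 157 members and under 30% for 188. The steadiest was GlcNAc1pUT1 (rank 111), an enzyme of UDP-N-acetylglucosamine synthesis, with 731.4, 719.2 and 718.0 TPM (CV 1.02%). The least steady was AT3G48660 (CV 52.2%), followed by AT3G60975 (rank 52), a hypothetical protein gene of 90 residues with 2035, 1814 and 795.1 TPM (CV 42.7%), RPL30B, SKS13 and AT4G14315. The highest library was over 2 times the lowest for 8 members, and 6 of these were lowest in replicate 3.

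SC replicate 3 was the lowest library for 107 of the 200 members, and this went with transcript length. The length is that of the reference transcript with the longest coding sequence, which may differ from the assembly behind the TPM values. For the 12 members under 600 nt the median ratio of replicate 3 to replicate 1 was 0.600, and all 12 were lowest in replicate 3. It was 0.729 for 40 members from 600 to under 1000 nt, 0.917 for 65 from 1000 to under 1500 nt, 1.03 for 52 from 1500 to under 2000 nt and 0.995 for 31 of 2000 nt and over. Over the 200 members, log2 length and the log2 ratio had Pearson's r = 0.52 (Spearman's rank correlation 0.46), and r was 0.10 for replicate 2 over replicate 1. These are correlations across genes that share the same libraries, given as description. The same held for the 3134 other genes of at least 10 TPM in SCs (r = 0.34). Values of short members such as AT2G45405, AT4G14315 and RPL30B therefore carry a difference between libraries that goes with length, and its source was not tested.

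**Figure D5:**
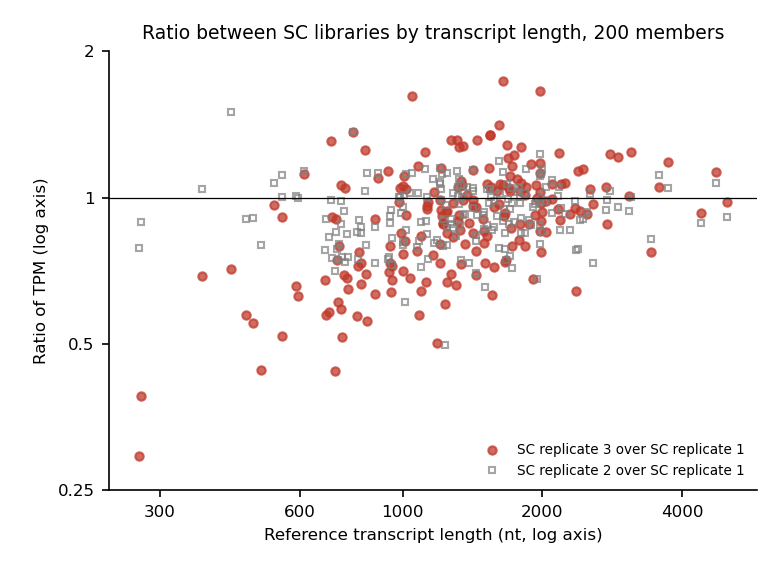
Ratio of TPM between SC libraries (y axis, log scale) against the length of the reference transcript (x axis, nt, log scale) for the 200 members. Red circles are replicate 3 over replicate 1 and open grey squares replicate 2 over replicate 1, and the line marks equal TPM. Red circles lie low at the left, with a median of 0.600 under 600 nt, and around 1 at the right, with 0.995 at 2000 nt and over.

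Members were shorter than the other genes at 1 TPM or more in SCs. The median transcript was 1339 nt, against 1633 nt for the 7236 others, and the median protein 306.5 residues, against 371. Proteins under 100 residues were 8.50% of members and 5.15% of the others, and single-exon genes were 22.0% of members, 32.0% of ranks 1 to 50 and 14.01% of the others. The 200 highest VN genes were of the same kind, with 10.5% under 100 residues and 27.0% single-exon genes, so neither share set SCs apart from VN. Since TPM divides by length, genes were also ranked by TPM times reference length, an approximate share of reads. Of the 200 members, 163 stayed in the 200 highest, and the 10 highest members held 38.9% of that quantity, against 46.7% of TPM. DAF1 kept first place with 17.5%, and AT2G45405 moved to place 15. Outside the members, the highest by this measure was AT1G15940, a Tudor domain gene of 3641 nt at rank 213.

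The members were set beside their protein families. Paralogues were defined as table genes whose proteins align with at least 30% identity over at least 50% of the longer protein. No paralogue was found for 47 members, which held 30.2% of SC TPM. Of the 153 with a paralogue, 124 held over 50% of the SC TPM of their family and 79 held over 90%, which the choice of members by SC TPM favours. MGH3, with 13 H3 paralogues, held 98.4% of the SC TPM of its family and 20.6% of the VN TPM. In 17 families 2 or more members occurred together, 37 members in all, of which the poly(A)-binding proteins were the largest with 4.

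Some values cannot be given to a single gene. AT4G09200 and AT4G09310 (ranks 70 and 72), SPRY domain genes, encode identical proteins, and their values were near equal at 1035, 1076 and 1390 TPM and 1028, 1070 and 1385 TPM in SCs. Counting UBQ14, AVA-2PE, RPL37B and TPX2, 6 members had a relative of at least 95% identity. The stretch shared with AT1G34095 lies partly inside AT4G11543 and AT2G45403, so its reads may have been split between copies. Another annotated gene overlapped 57 members, on the opposite strand in 49 cases, and Smart-seq2 does not mark the strand. Among overlapping genes with a TPM value, only AT4G11547 and AT4G11543 overlapped one of over 1000 TPM, each other. Some overlapping genes have no TPM value, such as a long non-coding RNA gene over 723 bases of AT3G12510 (rank 22). Their level is unknown. There were 7 pairs of members that were direct neighbours in the table, with 13 genes, among them ORP3A with CYCD7;1 and AT5G16100 with AT5G16110.

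At the lower edge of the list the levels were continuous. The 5 last members began with TIM17-2, a mitochondrial import subunit, which had 493.4, 435.4 and 343.9 TPM, BCP1 (rank 197) 475.8, 356.8 and 434.2 TPM, AT1G78460 (rank 198) 335.4, 377.5 and 543.4 TPM, H2B.8 (rank 199) 456.7, 417.6 and 363.2 TPM and UBC19 (rank 200) 481.9, 385.3 and 368.4 TPM. Just outside, AT5G13100 (rank 201) had 446.0, 422.4 and 355.6 TPM, RBCS3B (rank 202) 514.5, 368.2 and 339.4 TPM, HVA22D (rank 203) 528.1, 374.5 and 315.4 TPM, AT3G48490 (rank 204) 470.4, 461.2 and 266.7 TPM and AT3G28750 320.8, 323.5 and 552.2 TPM. The means on both sides of the edge, 411.9 TPM at rank 200 and 408.0 TPM at rank 201, were far closer than the libraries of either gene.

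To set the members into the whole transcriptome, every gene of the table was assigned to 1 of 18 classes by words in its description, and the share of TPM of each class was compared between cell types. The first matching word decided, so that ASK1 and EIN3 fell among kinases, phosphatases and signalling genes, and ORC6 and CKS2 among other named proteins. Over all genes the classes separated the libraries in 16 of 18 cases, 8 with the higher share in SCs and 8 with the lower, each at the smallest p the exact permutation test allows (two-sided p = 0.1, adjusted over 18 classes 0.1125). The number of separating classes was 14 with the 10 highest genes of each library removed and the rest rescaled. Ubiquitin and proteasome genes held 17.8% ± 2.34 in SCs and 2.62% ± 0.146 in VN, of which DAF1 alone gave 13.96% in SCs. Histones held 0.995% ± 0.165 in SCs and 0.117% ± 0.0161 in VN, chromatin genes 1.18% ± 0.0383 and 0.196% ± 0.00985, and cell cycle and DNA genes 3.35% ± 0.363 and 0.393% ± 0.0209 (SD, n = 3 each). Transcription genes held 4.70% ± 0.358 in SCs and 2.68% ± 0.1002 in VN. With the 10 highest genes of each library removed and the rest rescaled, the difference, SC minus VN, was 4.25 points in place of 15.2 for ubiquitin genes and 0.694 in place of 2.96 for cell cycle genes, whose SC share came mostly from CYCD7;1. Under that step it was 1.73 in place of 0.879 for histones, 2.01 in place of 0.989 for chromatin and 4.55 in place of 2.01 for transcription.

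Other classes were lower in SCs. Cytoskeleton genes, with none of 300 among the members, held 0.280% ± 0.00927 in SCs and 1.89% ± 0.191 in VN, and kinases, phosphatases and signalling genes held 3.77% ± 0.118 in SCs and 10.8% ± 0.670 in VN. Chaperones, also without a member, were higher in SCs, with 0.331% ± 0.0142 in SCs and 0.265% ± 0.0156 in VN. Genes of unknown function held 26.3% ± 1.08 in SCs and 8.48% ± 0.528 in VN, but with the 10 highest genes of each library removed and the rest rescaled the difference turned to -1.51 points, so the excess rested on those few genes. RNA binding and processing genes and other membrane proteins, lower in SCs by 0.849 and 3.83 points, turned to 1.29 and 0.555 points higher under the same step. Translation factors and membrane transport did not separate (same exact permutation test, p = 0.2 and 0.3).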

How the data were processed

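SCs and VN were sorted by FACS from mature pollen of one reporter line, and Smart-seq2 libraries were sequenced (3 per cell type). The deposited table holds TPM values per gene and library. The submitters' processing notes name Trim Galore. Per the study's methods, the authors aligned reads with Hisat2 (2.1.0), merged Stringtie (2.0) assemblies, compared them with the Araport11 annotation and quantified transcripts with Salmon (0.14.1), and the way transcripts were summed to genes is not given in the sources used here. TPM divides by transcript length and keeps no read numbers, so no depth or counting interval can be given. Reads of near-identical genes can be split by the quantifier, and Smart-seq2 keeps no strand.

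Genes were ranked by mean SC TPM. Members, marker lists, word classes and role groups were chosen with earlier results of these data known. The text names the 30 highest members, the 3 highest of each word class, the 5 with the largest and smallest CV, the 5 with the lowest and highest VN mean, 5 genes on either side of the lower edge, the markers and members of shared families, of which AT5G08240, RBP45B and its relative AT1G47500 are not described. Members named beyond this rule were chosen after their values were seen. The member at rank 9 is not reported here.

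SCs were set against VN with limma (3.58.1, R 4.3.3) on log2(TPM + 1), trend on, for genes at 1 TPM or more in at least 2 of 6 libraries, with Benjamini-Hochberg adjustment, and the code was tested on simulated data. A fold change on this scale understates the change of low genes. Class shares were compared by exact permutation over libraries (scipy 1.17.1). Proteins and start windows were translated or read from the TAIR10.1 RefSeq genome and annotation and aligned with BLAST+ (2.17.0, E value 1e-10). Of the genes in the table, 27445 had a reference model. Alternatives were the median or log2 mean for ranking, organelle genes left out, other list sizes, the pseudocount 0.1, other filters, quantile and median scaling, the replicate number as a block and each library left out.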

Additional observations from a re-analysis of the deposited data

How the results depend on the processing

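Of 234 values recomputed under alternatives, 231 kept their direction and their side of the threshold, or stayed within 1.5 times of a count. The exceptions were 3 class shares with the 10 highest genes of each library removed and the rest rescaled, where SC minus VN turned to 1.29 points for RNA binding and processing, to 0.555 for other membrane proteins and to -1.51 for genes of unknown function, and the alternative itself takes out those genes. For the 16 classes whose libraries separated, leaving out 1 library cannot change the direction, so those values count as no support. A kept direction also hides changes in size. With the 10 highest genes removed, SC minus VN fell from 15.2 to 4.25 points for ubiquitin genes. It went from -13.2 to -0.41 for other named proteins. Of the 200 members, 198 stayed with the median over libraries, all 200 with the mean of log2 values or without organelle genes, and 195 to 197 with 1 SC library left out. After the data had been seen, 2 rankings were added, in which 183 stayed with genes of higher VN mean left out and 163 with TPM times length. Members called higher in SCs ranged from 173 to 183 and members called higher in VN from 13 to 14 over the limma alternatives, and calls over all genes ranged from 5845 without a filter to 7411 without VN replicate 2, against 7105. Same-numbered SC and VN libraries correlated between -0.035 and 0.0085 in their deviations, which cannot show whether they shared plants or a sort. With the replicate number as a block 6927 genes were called, 3058 higher in SCs and 3869 higher in VN. Median centring gave 3894 and 3345, and quantile normalization 3774 and 3577, against 3204 and 3901. Median centring moved the median log2 difference of all genes from -0.55 to -0.03 and quantile normalization to -0.13. TPM values carry no depth, so low VN levels of members cannot be given a counting error, and levels of short members carry the difference between SC libraries that goes with length.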

Other observations

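Ribosomal protein genes were unevenly listed. Of 373 genes described as ribosomal protein, 176, 166 and 177 were listed at 0 TPM in the 3 SC libraries. Some are relatives of an expressed gene, as AT1G36240 is of RPL30B. Whether the zeros are silent genes or missed transcripts was not tested, so a 0 in this table is not read as absence. The whole class, with 148 of its 436 genes at 1 TPM or more, held 0.652%, 0.555% and 0.413% of SC TPM and 0.285%, 0.207% and 0.248% of VN TPM. No SC library overlapped a VN library. Its SC share was lowest in replicate 3, the library in which short members were low.

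Other known germline genes had values below the 200 highest. GEX2, a gamete adhesion protein, had 105.6, 111.8 and 111.7 TPM in SCs and at most 0.817 TPM in VN, and SSP, a paternally provided signalling protein of the zygote, had 218.0, 281.6 and 281.9 TPM in SCs and at most 6.28 TPM in VN. DMP8 had 75.6, 68.5 and 38.1 TPM in SCs, against 1133, 1053 and 957.2 TPM for its relative DMP9. Both were lowest in SC replicate 3, and in neither did SC and VN libraries overlap.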
